A study of Zea mays with 6 samples.

Results

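The genes described here are 2 genes of the trans-acting siRNA (ta-siRNA) pathway and 5 genes of the ARF3 type, the transcripts that this pathway acts on. The pathway genes are lbl1 (leafbladeless1, GRMZM2G020187) and rgd2 (ragged seedling2, GRMZM2G354867), and the ARF3-like genes are ARF11 (GRMZM2G056120), GRMZM2G030710, ARF23 (GRMZM2G441325), ARF12 (GRMZM2G437460) and GRMZM5G874163. They were taken by gene ID from a list drawn up by role, and all 7 were found among the 39656 genes of the deposited table. The name rgd2 and the assignment of all 5 genes to the ARF3 type came with that list and were not checked against sequence. Transcripts were counted in laser-microdissected cells of 14-d-old wild-type B73 seedlings, an inbred maize line, in 6 libraries. The regions, with 2 libraries each, were the center zone of the apex and, in primordia P2 and P3, the adaxial and the abaxial side. No mutant, transgene or treatment was part of any group, and all seedlings were grown with 16 h of light at 25°C and 8 h of dark at 21°C according to the labels. Each library pooled cells cut from 8 µm sections of several apices, so the 2 replicates of a region are the unit of comparison.

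In plants, ta-siRNAs are small RNAs made in steps from noncoding TAS transcripts. For the TAS3 family, an ARGONAUTE7 protein, which is the product of rgd2, cuts the transcript under the guidance of a microRNA. The product of lbl1, the maize counterpart of SGS3, protects the cut RNA while it is copied into double-stranded RNA, and a Dicer-like protein then cuts this into short pieces. Some of these pieces, called tasiR-ARF, direct the cleavage of transcripts of ARF3-type auxin response factors, which promote abaxial (lower side) identity of the leaf. In maize, loss of lbl1 function gives leaves that lack adaxial (upper side) identity.

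The 7 genes lie on 4 chromosomes, all on the plus strand. In the coordinates of the deposited table, whose build is B73 RefGen_V3, these are chr6:17165362-17171793 for lbl1, chr10:142397910-142403289 for rgd2, chr3:196568222-196574187 for ARF11, chr6:164519768-164525033 for GRMZM2G030710, chr6:158647498-158653792 for ARF23, chr3:210265410-210273272 for ARF12 and chr8:174214893-174221202 for GRMZM5G874163. None of them overlapped another gene of the table, and the closest neighbor was 2505 bp away, next to rgd2. Only uniquely aligned reads were counted, so reads shared between near-identical copies of the ARF3-like genes would be missing from all of them, and how many such reads there were could not be computed from the table.

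Count totals were 21970034 and 23116290 in the center zone, 23568329 and 25898155 on the adaxial side, and 14718269 and 15453375 on the abaxial side. Levels are given as RPM, read counts scaled to the uniquely aligned reads of a library. The amplified RNA covers the 3′ ends of transcripts and RPM carry no length correction, so levels of different genes are not ranked. A gene with no count could have had up to 0.112 to 0.196 RPM (3 counts), a limit that covers counting error only. The 9 KNOX genes with a symbol, among them the meristem gene kn1, summed to between 1233.4 and 1436.4 RPM in the center zone and to at most 67.0 RPM in any leaf library. The adaxial genes rld1, IG1 and ial1 summed to between 361.4 and 451.0 RPM in the center zone, between 715.9 and 735.1 RPM in adaxial cells and between 392.8 and 401.1 RPM in abaxial cells. Of these, IG1 and ial1 were called higher on the adaxial than on the abaxial side, while rld1, which made up most of the sum in every region, was not (log2 fold change 0.37, adjusted p = 1 from edgeR). The abaxial KANADI genes kan1, kan3 and mwp1 summed to between 1.4 and 5.5 RPM in the center zone, between 1.9 and 3.6 RPM in adaxial cells and between 80.0 and 83.7 RPM in abaxial cells. The 8 YABBY genes of the leaf primordium reached between 23.5 and 91.3 RPM in the center zone, where the higher value was in replicate 1, and at least 567.4 RPM in every leaf library. Most of this sum was yabby15 in every library, with 78.8 RPM in center zone replicate 1. Between the leaf sides, DESeq2 called 3 of the 8 (1.08% of all genes), with yab9 higher and YAB5 and YAB11 lower in adaxial cells. EdgeR called 0 of the 8 there (0.0723% of all genes). The 4 epidermal OCL genes reached between 291.8 and 314.4 RPM in the center zone and at least 1245.1 RPM in every leaf library. The only lignin gene matched, BM1, had between 30.7 and 55.4 RPM in the center zone and at most 6.9 RPM in the leaf.

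Transcripts of lbl1 were most abundant in the center zone. The center zone libraries had 957.4 and 1051.5 RPM, the adaxial libraries 352.3 and 245.7 RPM, and the abaxial libraries 342.8 and 326.9 RPM. Both center zone libraries lay far above all 4 leaf libraries, while the adaxial and abaxial libraries overlapped. The mean of 1004.45 ± 66.5 RPM in the center zone stood against 299.0 ± 75.4 RPM in adaxial cells and 334.85 ± 11.2 RPM in abaxial cells (SD, n = 2 each). The level in the center zone was 3.03-fold that of the adaxial side (log2 fold change 1.60, standard error 0.21, adjusted p = 0.00259 from edgeR), a call made for 6.38% of all genes in this direction. Against the abaxial side it was 2.78-fold (log2 fold change 1.48, standard error 0.21, adjusted p = 0.00346 from edgeR), where 6.22% of all genes were called higher. Such a pattern of the libraries is common, since 36.9% of the 17993 genes tested had both center zone libraries above all leaf libraries. Adaxial against abaxial, lbl1 did not pass the test (log2 fold change -0.12, 95% interval -0.60 to 0.35, adjusted p = 1 from edgeR). The interval leaves room for adaxial levels moderately lower or higher than abaxial ones.

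Transcripts of rgd2 showed the reverse pattern, with the lowest levels in the center zone. There were 3.0 and 2.1 RPM in the center zone, 10.2 and 12.9 RPM in adaxial cells, and 12.9 and 8.1 RPM in abaxial cells. Both center zone libraries lay under all 4 leaf libraries, as for 22.9% of the genes tested, and the leaf sides overlapped. These levels rest on few reads, with 73 and 47 counts in the center zone and between 130 and 346 counts in the leaf libraries. Counting error alone gives 95% Poisson intervals of 2.37 to 3.81 RPM and 1.51 to 2.73 RPM in the center zone, and the lowest leaf library had an interval of 6.75 to 9.59 RPM. The gene was lower in the center zone than on the adaxial side (log2 fold change -2.35, standard error 0.39, adjusted p = 0.00572 from edgeR) and than on the abaxial side (log2 fold change -2.16, standard error 0.39, adjusted p = 0.00815 from edgeR). Of all genes, 5.61% and 4.42% were called lower in these comparisons. Adaxial against abaxial, rgd2 did not pass the test (log2 fold change 0.20, 95% interval -0.66 to 1.05, adjusted p = 1 from edgeR). Neither pathway gene thus passed between the leaf sides by edgeR, DESeq2 or limma-trend, where 0.0723%, 1.08% and 0.0834% of all genes did. An unadjusted p under 0.05 in edgeR was found for 0 of the 2 and for 5.24% of all genes. In bulk captures such as these, fewer cells with a transcript and less transcript per cell cannot be told apart. All 4 epidermal OCL genes were also called lower in the center zone against either side, as their sums above show, and their part in the patterns of lbl1 and rgd2 was not tested.

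**Figure D1:**
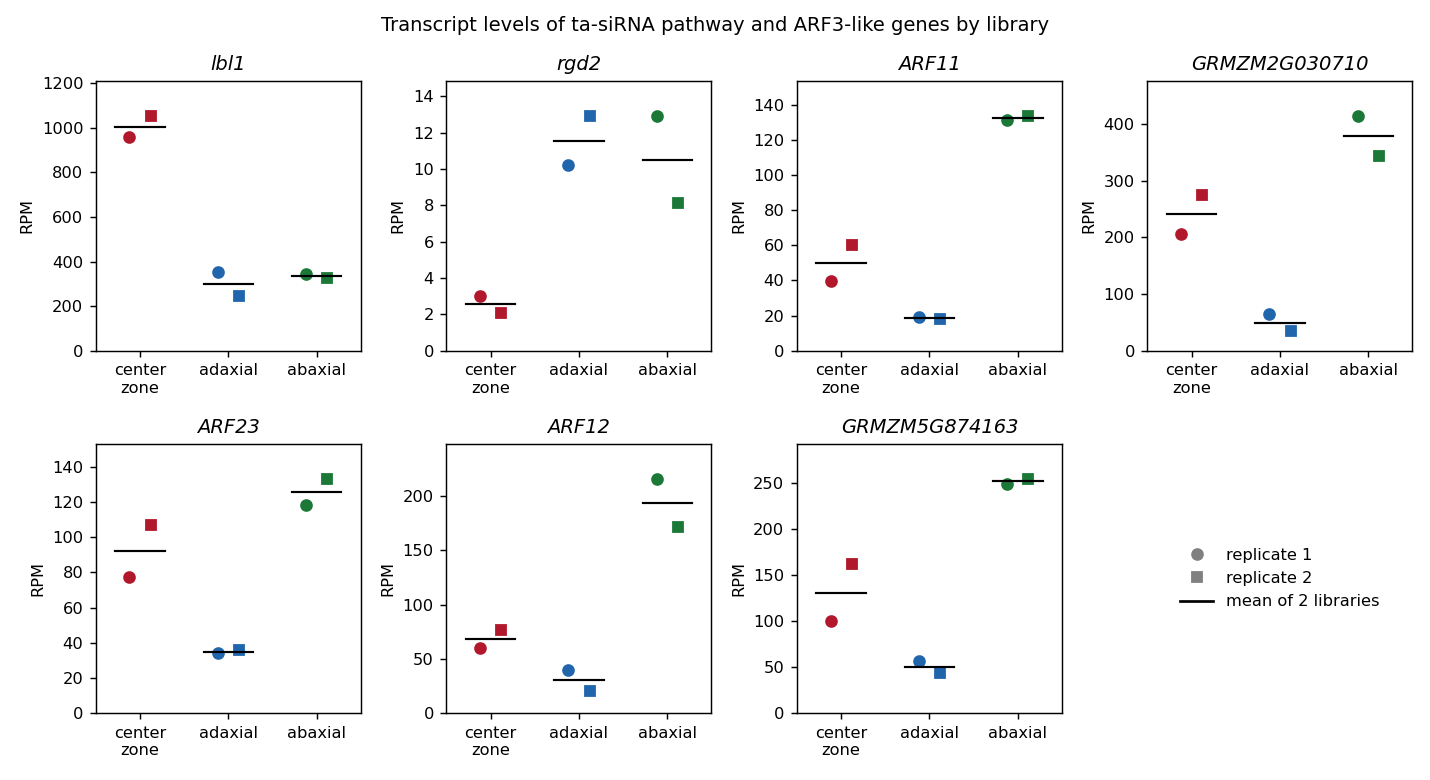
Levels in RPM (vertical axes, from 0, a scale for each gene) of lbl1, rgd2 and the 5 ARF3-like genes in the center zone, adaxial and abaxial libraries. Points are libraries (circle replicate 1, square replicate 2) and bars the mean of both; lbl1 is highest and rgd2 lowest in the center zone, and every ARF3-like gene is lowest on the adaxial and highest on the abaxial side.

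All 5 ARF3-like genes had the same order of regions, abaxial over center zone over adaxial, with no overlap between the libraries of any pair of regions. This held for 56 of the 17993 genes tested (0.311%), the 5 included. In a looser sense, with both adaxial libraries under all others, the count was 5 of 5 beside 9.53% of all genes. The adaxial mean was between 13.1% and 27.9% of the abaxial mean for the 5 genes, and the center zone mean between 35.4% and 73.2% of it.

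ARF11 had 39.9 and 60.0 RPM in the center zone, 19.2 and 18.0 RPM in adaxial cells, and 131.5 and 133.4 RPM in abaxial cells. GRMZM2G030710 had 205.8 and 275.5 RPM in the center zone, 64.0 and 35.1 RPM in adaxial cells, and 413.8 and 344.3 RPM in abaxial cells. The adaxial replicates of this gene differed 1.82-fold, while those of ARF11 differed 1.07-fold. ARF23 had 77.3 and 106.7 RPM in the center zone, 34.4 and 35.8 RPM in adaxial cells, and 118.4 and 133.1 RPM in abaxial cells. Its center zone and abaxial libraries came closest to each other among the 5 genes. ARF12 had 60.4 and 76.7 RPM in the center zone, 40.4 and 20.5 RPM in adaxial cells, and 215.9 and 171.4 RPM in abaxial cells. GRMZM5G874163 had 100.4 and 161.8 RPM in the center zone, 57.1 and 43.5 RPM in adaxial cells, and 249.4 and 254.5 RPM in abaxial cells. In the center zone, replicate 2 was higher than replicate 1 for all 5 ARF3-like genes, by 1.27-fold to 1.61-fold, and lbl1 was 1.10-fold higher there. On the leaf sides the replicates of the 5 genes did not share a direction.

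Between the leaf sides, the ARF3-like genes were among those with the lowest adaxial levels relative to abaxial ones. At an adjusted p under 0.01, 1 of the 5 was called, ARF11, where 0.0222% of all genes were called lower on the adaxial side (4 of 17993) and 0.0723% in either direction. The fold change of ARF11 was a 6.88-fold lower adaxial level (log2 fold change -2.78, standard error 0.25, adjusted p = 0.00969 from edgeR). The log2 fold change was -2.90 for GRMZM2G030710 (standard error 0.31, adjusted p = 0.023 from edgeR). ARF12 had -2.64 (standard error 0.33) and ARF23 had -1.79 (standard error 0.23), each with an adjusted p = 0.0408 from edgeR. For GRMZM5G874163 it was -2.28 (standard error 0.27, adjusted p = 0.0328 from edgeR). These 4 genes thus passed 0.05 and not 0.01, and only 18 genes in all (0.1%) were lower on the adaxial side at an adjusted p under 0.05. The log2 fold change of GRMZM2G030710 had 42 genes below it among all 17993, that of ARF11 47, that of ARF12 52, that of GRMZM5G874163 67 and that of ARF23 134. With DESeq2, all 5 passed 0.01, beside 1.08% of all genes.

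The call for ARF11 was lost when 1 leaf library was left out, whichever it was. Such a fit has 1 library on a leaf side, and calls were lost among all genes too. Whether ARF11 lost its call more readily than other genes was not tested. The log2 fold change of ARF11 stayed between -2.83 and -2.76 over the alternatives. Leaving out 1 center zone library also changed the calls between the leaf sides, in fits where all libraries share an estimate of the spread. The KANADI genes also had higher levels in the abaxial libraries without passing by edgeR or limma-trend (0 of 3, beside 0.0723% and 0.0834% of all genes). All 3 passed by DESeq2 (1.08% of all genes) and had an unadjusted p under 0.05 in edgeR (5.24% of all genes). Their adaxial sum was 3.36% of the abaxial sum, whereas the summed adaxial level of the ARF3-like genes was 17.0% of the abaxial one.

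In the center zone, the ARF3-like genes stood between the leaf sides. Against the adaxial side, 3 of the 5 were called higher in the center zone, where 6.38% of all genes were. The fold changes were 4.42-fold for GRMZM2G030710 (log2 fold change 2.14, standard error 0.30, adjusted p = 0.00358 from edgeR), 2.41-fold for ARF11 (log2 1.27, adjusted p = 0.00858 from edgeR) and 2.35-fold for ARF23 (log2 1.23, adjusted p = 0.00763 from edgeR). GRMZM5G874163 (log2 fold change 1.24, adjusted p = 0.0132 from edgeR) and ARF12 (1.03, adjusted p = 0.0423 from edgeR) did not pass 0.01. Against the abaxial side, 1 of the 5 was called lower in the center zone, where 4.42% of all genes were. This was ARF11 (log2 fold change -1.51, standard error 0.24, adjusted p = 0.00505 from edgeR). The log2 fold changes of the others were -1.61 for ARF12 (adjusted p = 0.0111 from edgeR), -1.04 for GRMZM5G874163 (adjusted p = 0.0241), -0.76 for GRMZM2G030710 (adjusted p = 0.0872) and -0.56 for ARF23 (adjusted p = 0.0952). Both comparisons use the same center zone libraries, and both leaf comparisons of a side use the same leaf libraries, so their fold changes are not independent of each other.

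With lbl1 and rgd2 included, 5 of the 7 genes were called between the center zone and the adaxial side (12% of all genes) and 3 of the 7 between the center zone and the abaxial side (10.6% of all genes). Calls among the 7 genes changed when 1 library was left out, and most were lost without a replicate of the leaf side compared. Such fits have 1 library in a region. The share of all genes called fell in them too, except without center zone replicate 1, where it rose. Whether the 7 genes lost calls more readily than other genes was not tested. Over the alternatives, the log2 fold change against adaxial was 1.42 to 1.81 for lbl1 and -2.63 to -2.10 for rgd2. Against abaxial it was 1.36 to 1.59 for lbl1 and -2.48 to -1.77 for rgd2. The direction of every called fold change was kept in these fits. Against the mean of both leaf sides, lbl1 and rgd2 were called (2 of 7, beside 18.7% of all genes). None of the ARF3-like genes was called there by edgeR, DESeq2 or limma-trend (1 of 5 at an unadjusted p under 0.05, beside 49.2% of all genes). Their center zone levels lay between those of the leaf sides, so differences of opposite direction offset each other in this comparison. It therefore does not show a lack of difference from either side. The call for rgd2 there was lost in some of the fits without 1 library, while its log2 fold change stayed between -2.53 and -2.04 over the alternatives.

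**Figure D2:**
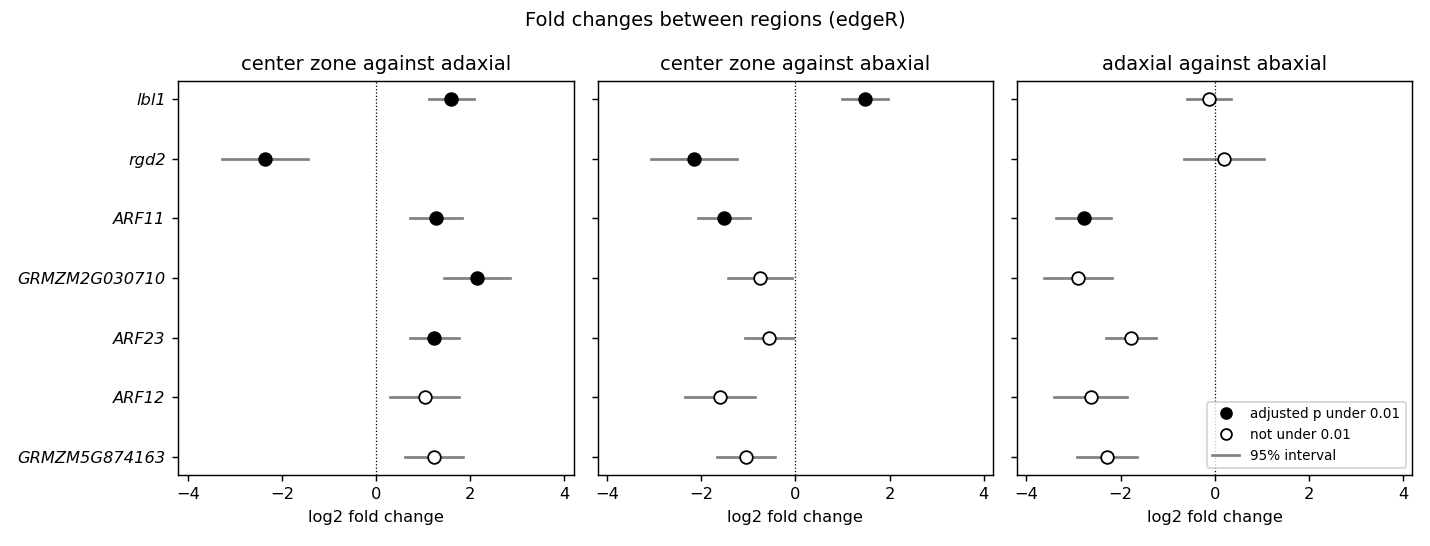
Log2 fold changes from edgeR (horizontal axes) of lbl1, rgd2 and the ARF3-like genes in 3 panels (center zone over adaxial, center zone over abaxial, adaxial over abaxial), with 95% intervals (grey lines). Filled points passed an adjusted p under 0.01; between the leaf sides lbl1 (-0.12) and rgd2 (0.20) sit near 0 and the ARF3-like genes between -2.90 and -1.79.

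The ARF3-like genes were next set beside the pathway genes within each library, where depth and scaling cancel. The summed level of the 5 genes was 483.8 and 680.7 RPM in the center zone, 215.1 and 152.9 RPM in adaxial cells, and 1129.0 and 1036.7 RPM in abaxial cells. The ratio of their summed counts to lbl1 counts was 0.505 and 0.647 in the center zone, 0.61 and 0.622 on the adaxial side, and 3.29 and 3.17 on the abaxial side. The center zone and adaxial libraries thus overlapped in this ratio, and the abaxial libraries stood above them. On the log2 scale the mean ratio differed by -0.11 between center zone (-0.81) and adaxial (-0.70), within the spread of the replicates (SD 0.179). Its sign was not stable, with 0.071 without center zone replicate 1, and it was -0.439, beyond that spread, when GRMZM2G030710 was left out of the sum. It differed by -2.50 between center zone and abaxial (1.69), and by -2.39 between adaxial and abaxial, far above the spread within regions (SD 0.181 and 0.0304).

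Relative to rgd2 the picture was another. The ratio of summed ARF3-like counts to rgd2 counts was 159.7 and 331.8 in the center zone, 21.0 and 11.9 on the adaxial side, and 87.4 and 128.3 on the abaxial side. The log2 ratio was 3.86 higher in the center zone than on the adaxial side (SD within regions 0.67) and 1.12 higher than on the abaxial side (SD 0.596), the second value being 0.59 without center zone replicate 2 and 1.65 without center zone replicate 1. It differed by -2.74 between adaxial and abaxial (SD 0.497). The 3 regions did not overlap in it. With 2 libraries a region, a two-sided exact permutation test cannot go below p = 0.333, and no test was made of these ratios. A ratio between 2 genes also depends on how well each is amplified and aligned, so only its change between regions is described. Reads at the 3′ end do not separate intact from cleaved target transcripts.

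**Figure D3:**
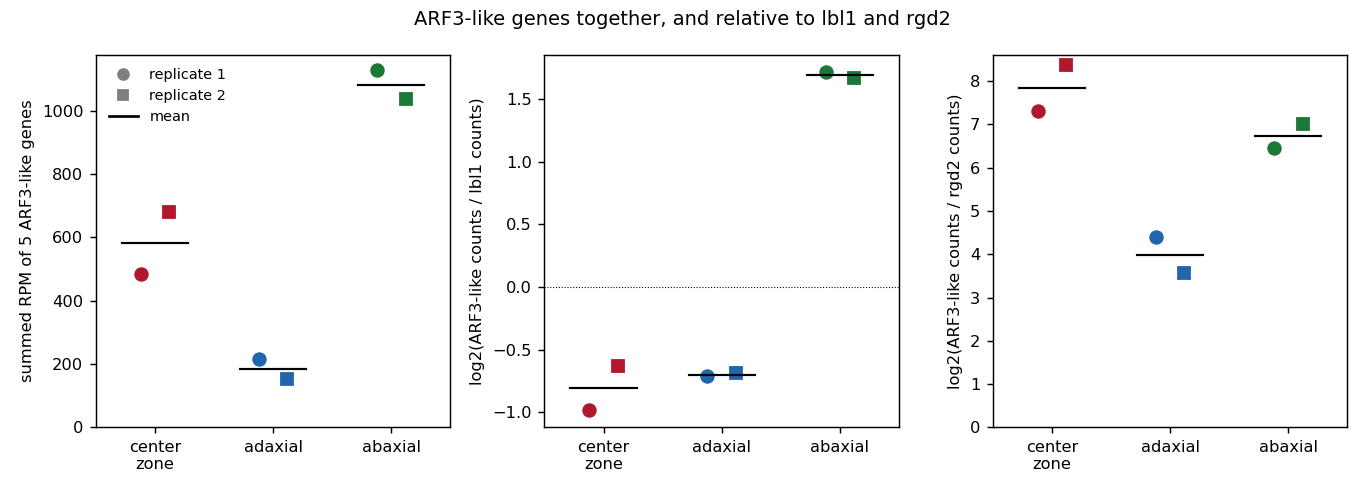
Summed RPM of the 5 ARF3-like genes (left, axis from 0), log2 ratio of their summed counts to lbl1 counts (middle) and to rgd2 counts (right), by region; points are libraries and bars the mean of both. Relative to lbl1, center zone and adaxial libraries share a range (-0.99 to -0.63) under the abaxial ones (1.67 and 1.72), while relative to rgd2 the 3 regions are apart.

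Individual ARF3-like genes contributed unequally to the sum in the 3 regions. GRMZM2G030710 made up 42.5% and 40.5% of the summed counts in the center zone, 29.7% and 22.9% on the adaxial side, and 36.7% and 33.2% on the abaxial side, which is a description of counts and not of molecules. ARF12 made up 12.5% and 11.3% in the center zone, 18.8% and 13.4% on the adaxial side, and 19.1% and 16.5% on the abaxial side. As a share of a gene's mean RPM summed over the 3 regions, the abaxial share was 65.9% for ARF11, 66.2% for ARF12, 58.1% for GRMZM5G874163, 56.6% for GRMZM2G030710 and 49.7% for ARF23. The adaxial share was lowest for GRMZM2G030710 (7.4%) and highest for ARF23 (13.9%). The center zone held 61.3% of the regional sum for lbl1 and 10.4% for rgd2. Shannon entropy over the 3 regions, which falls as a profile becomes more specific, was between 1.21 (ARF11) and 1.43 (ARF23) for the 7 genes, beside a median of 1.55 for all expressed genes.

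Other genes of small RNA pathways were matched by symbol. Of 10 gene IDs, 7 were expressed and tested, lbl1 among them. Against the adaxial side, edgeR called 1 of the 7 higher in the center zone (lbl1) and 0 lower, beside 6.38% and 5.61% of all genes. At an unadjusted p under 0.05 there were 5 of the 7, beside 44.6% of all genes. DESeq2 called 2 higher (lbl1 and dcl3a/rmr5) and 2 lower (dcl1 and dcl4), where it called 28.5% of all genes. Limma-trend called lbl1 alone, 1 of the 7, beside 13.7% of all genes. Against the abaxial side, edgeR and limma-trend called 1 higher (lbl1) and 2 lower, dcl1 and dcl4. Of all genes, edgeR called 6.22% higher and 4.42% lower there, and limma-trend called 12.9% in either direction. DESeq2 also called dcl3a/rmr5 higher there, with 26.9% of all genes called. The Dicer-like gene dcl1, which serves microRNA production, had 24.5 and 30.6 RPM in the center zone, 44.4 and 42.1 RPM in adaxial cells, and 83.6 and 78.1 RPM in abaxial cells (center zone against abaxial log2 fold change -1.66, adjusted p = 0.00209 from edgeR). The tested ID of dcl4, whose Arabidopsis counterpart cuts ta-siRNAs, had 27.6 and 28.3 RPM in the center zone, 45.4 and 36.7 RPM in adaxial cells, and 49.2 and 51.6 RPM in abaxial cells (center zone against abaxial -0.96, adjusted p = 0.00899 from edgeR). A further 2 IDs named dcl4 had at most 0.7 RPM, so dcl4 may be split over several gene models. Against the abaxial side, dcl4 thus had the direction of rgd2 and not that of lbl1.

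The gene named rdr6, after the polymerase that acts with SGS3, had between 0.5 and 1.9 RPM in the 6 libraries and was under the limit of 2 RPM for testing. By edgeR, mop1, dcl3a/rmr5, SE1A and SE1B were not called in any pairwise comparison, with log2 fold changes of 0.83, 1.23, 0.55 and 0.09 for center zone against adaxial, and the name table does not say what SE1A and SE1B encode. Adaxial against abaxial, 0 of the 7 were called by edgeR, DESeq2 or limma-trend, beside 0.0723%, 1.08% and 0.0834% of all genes. Before adjustment, edgeR gave 2 of the 7 a p below 0.05, beside 5.24% of all genes. The median log2 fold change of the 7 genes was 0.55 for center zone against adaxial and 0.57 for center zone against abaxial, beside 0.04 and 0.03 for all genes. These medians are the values of SE1A and SE1B. The 7 genes did not share a direction, since dcl1 and dcl4 were lower in the center zone in both comparisons and the others higher. Genes named argonaute were added after their values had been seen. Of 3 such IDs, 2 were tested, and edgeR called 1 higher in the center zone against each side, beside 6.38% and 6.22% of all genes. The ID not tested, also named argonaute6 (GRMZM2G347402), had between 0.4 and 3.2 RPM. An ID named argonaute6 (GRMZM2G432075) was called higher in the center zone, with 163.7 and 302.1 RPM there, 67.2 and 54.2 RPM in adaxial cells, and 72.3 and 69.2 RPM in abaxial cells. Its log2 fold change was 1.80 against adaxial (adjusted p = 0.00671 from edgeR) and 1.62 against abaxial (adjusted p = 0.0099 from edgeR). Argonaute1 had log2 fold changes of 0.96 and 0.97 and did not pass by edgeR (adjusted p = 0.0219 and 0.0227) but did by DESeq2 (adjusted p = 0.00134 and 0.00132).

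Other auxin response factor genes were set beside the ARF3-like genes. Of 18 IDs with such a symbol, 15 were tested. The order abaxial over center zone over adaxial without overlap was found in 0 of the 15, beside 0.311% of all genes. With an order so rare among all genes, 0 of 15 does not set these genes apart. In the looser sense, 6 of the 15 had both adaxial libraries under all others, beside 9.53% of all genes. The 15 include GRMZM2G395844, whose symbol arf1 may stand for an ADP-ribosylation factor. Adaxial against abaxial, 0 of the 15 were called by edgeR, DESeq2 or limma-trend, beside 0.0723%, 1.08% and 0.0834% of all genes. With so few calls among all genes, 0 of 15 does not set these genes apart. Before adjustment, edgeR gave 3 of the 15 a p below 0.05, beside 5.24% of all genes. The median log2 fold change of the 15 was -0.15, beside -2.64 for the ARF3-like genes and 0.01 for all genes. The gene with the symbol ARF3 in the name table (GRMZM2G078274) is not on the list of ARF3-like genes and had a log2 fold change of -0.21 between the leaf sides (adjusted p = 1 from edgeR). ARF21 had -3.23, from 0.5 and 0.3 RPM in adaxial cells and 6.1 and 1.6 RPM in abaxial cells, and was not called (adjusted p = 0.347 from edgeR).

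Between the center zone and the leaf, several of these genes were called in either direction. Against the adaxial side, 2 were higher (ARF5 and ARF28) and 1 lower (ARF10), and against the abaxial side 3 were higher (ARF5, ARF28 and ARF2) and 1 lower (ARF10) by edgeR. Of all genes, edgeR called 6.38% higher and 5.61% lower against adaxial, and 6.22% higher and 4.42% lower against abaxial. DESeq2 called 6 of the 15 in each comparison, adding ARF9 and ARF13 in both and ARF2 against adaxial, where it called 28.5% and 26.9% of all genes. With limma-trend, 5 of the 15 were called in each, where it called 13.7% and 12.9% of all genes. ARF5 had 55.0 and 83.1 RPM in the center zone, 2.2 and 2.8 RPM in adaxial cells, and 1.0 and 1.4 RPM in abaxial cells (log2 fold change 4.64 against adaxial, adjusted p = 4.3e-04 from edgeR). ARF10 had 156.2 and 97.8 RPM in the center zone, 482.1 and 446.1 RPM in adaxial cells, and 408.8 and 363.0 RPM in abaxial cells (log2 fold change -2.03 against adaxial, adjusted p = 0.00194 from edgeR). Among 3 genes of the Aux/IAA family, which hold auxin response factors inactive, BIF4 was called higher in the center zone against both sides (log2 fold change 2.06, adjusted p = 0.00259 from edgeR against adaxial, and at an adjusted p = 2.6e-04 from edgeR against abaxial). BIF4 had 33.0 and 37.4 RPM in the center zone, 6.7 and 8.3 RPM in adaxial cells, and 0.9 and 1.1 RPM in abaxial cells. Between the leaf sides it passed 0.01 by DESeq2 but not by edgeR (log2 fold change 2.94, adjusted p = 0.0192 from edgeR) or limma-trend. BIF1 was called by DESeq2 alone, higher in the center zone than on the adaxial side (log2 fold change 1.43, adjusted p = 0.00147 from DESeq2), and IAA12 was not called in any pairwise comparison by edgeR, DESeq2 or limma-trend.

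**Figure D4:**
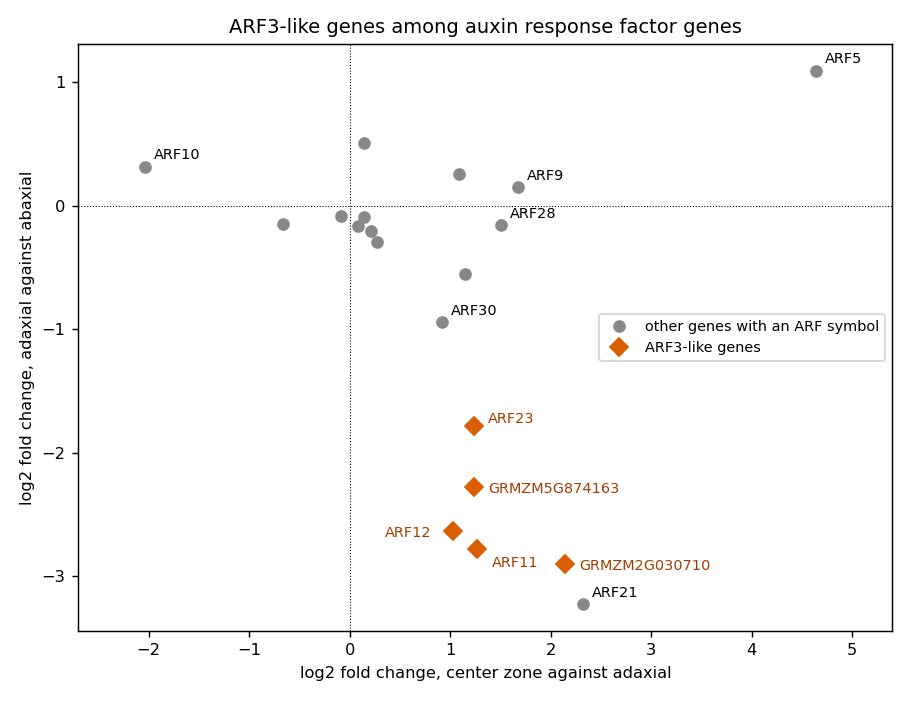
Log2 fold change of center zone against adaxial (horizontal axis) and of adaxial against abaxial (vertical axis) for the 5 ARF3-like genes (diamonds) and the 15 other tested genes with an ARF symbol (circles); both axes use the same adaxial libraries. The ARF3-like genes lie together at the lower right (vertical values from -2.90 to -1.79), near ARF21, a gene of low level that was not called.

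Genes with the most similar patterns were sought by the root mean square difference, over the 6 libraries, of log2(RPM + 1) after each gene's own mean had been subtracted. Among the 17992 other genes expressed, the 2 closest to ARF11 were GRMZM5G874163 (difference 0.23) and ARF12 (0.28), with ARF23 in place 9 (0.46) and GRMZM2G030710 in place 11 (0.48). Pearson correlations with ARF11 over the 6 libraries were between 0.93 and 0.99 for these 4 genes, which share their libraries with it. By symbol, the closest to ARF11 were ARF12, ARF23 and CKX12, the last of low level (at most 4.5 RPM). The closest to lbl1 were mbd117 (difference 0.08, correlation 0.996), mbd108 (0.08, 0.997) and cax1 (0.08, 0.998). As an example, mbd117 had 243.1 and 300.1 RPM in the center zone, 88.8 and 68.4 RPM in adaxial cells, and 91.8 and 93.9 RPM in abaxial cells. The closest to rgd2 were pdi/PDIL1-1 (difference 0.16), RNRS1 (0.17) and frk1 (0.17). With a pseudocount of 2 or by correlation, 0 of these 3 remained. Of the 3 genes named for lbl1, 2 remained with a pseudocount of 2 and 1 by correlation, so both lists depend on the measure.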

How the data were processed

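Total RNA of laser-microdissected cells was linearly amplified and sequenced as single-end reads. According to the study's methods, the authors trimmed bases of low quality, aligned reads with GSNAP (version not given in the sources used here) to B73 RefGen_V3, kept uniquely aligned reads and counted them per gene of annotation FGSv5b. The deposited table holds these read counts and RPM rounded to 1 decimal, which the authors scaled to all uniquely aligned reads.

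Groups came from the sample titles. The study's methods speak of 2 biological replicates for the tissues captured, but do not name center zone, adaxial or abaxial captures. Their growth temperatures also differ slightly from those of the labels. The account of replicates and processing in the methods was thus carried over to these 6 libraries. The test used counts of the 17993 genes (of 39656) whose RPM averaged 2 or more in a region. A model with the 3 regions was fitted to all 6 libraries in edgeR 4.0.16 (R 4.3.3), with TMM scaling and robust quasi-likelihood F tests, and p was adjusted after Benjamini and Hochberg, with calls at an adjusted p under 0.01. A standard error is the size of the log2 fold change over the root of its F. The common coefficient of variation was 30.5%. Code was tested on simulated data. The fits were repeated with DESeq2 1.42.0, with limma-trend (limma 3.58.1), scaled by library size alone, with no filter or one of 10 RPM, at 0.05, with a replicate block, on the compared groups only and without each library in turn. Ratios without each library were an addition made once values were known.

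Lists were matched by symbol through a RefSeq gene table (Zm-B73-REFERENCE-NAM-5.0, used for names only), which held 18775 of the IDs and 5 of the 7 genes. Symbols starting with phb were left out of the adaxial markers because in maize they can stand for prohibitins. Named are the 7 genes, up to 4 called genes of each list by size of change, and the 3 genes with a symbol most like lbl1, rgd2 and ARF11, beside single genes named for their role. The genes and lists were chosen with earlier results of these data known.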

Additional observations from a re-analysis of the deposited data

How the results depend on the processing

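Of 385 fold changes of the 7 genes under the alternatives, 290 kept direction and side of the threshold, 47 kept direction and no longer passed, 42 newly passed and 6 reversed. All 6 reversed values belong to fold changes that were not called. For center zone against both leaf sides, ARF11 was at 0.012 with library size alone and between -0.49 and 0.167 when 1 library was left out (0.167 without center zone replicate 1), and GRMZM5G874163 was between -0.336 (without center zone replicate 2) and 0.421. Between the leaf sides, leaving out 1 library gave -0.329 to 0.058 for lbl1 (above 0 without adaxial replicate 2) and -0.122 to 0.586 for rgd2 (-0.055 without adaxial replicate 2, -0.122 without abaxial replicate 2). Library size alone moved the median of all genes by 0.164, 0.111, -0.052 and 0.138 in the comparisons of center zone with adaxial, of center zone with abaxial, of the leaf sides with each other, and of center zone with both.

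Counts of called genes are given in that same order of comparisons. DESeq2 called 5125, 4847, 195 and 6151 genes, and an adjusted p under 0.05 called 5694, 5321, 44 and 6961. With the replicate number as a block, 991, 953, 0 and 2113 genes were called by edgeR (866 at an unadjusted p under 0.05 for adaxial against abaxial). In the fit of only the groups compared, 1067, 1258 and 75 genes were called. Without a filter, 49 genes were called between the leaf sides. Leaving out 1 library gave 212 to 3765, 218 to 3454, 0 to 66 and 1136 to 4472 genes.

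Of the 7 genes, the block left 2, 1 and 0 called in the 3 pairwise comparisons, and the fit of only the groups compared called 2 for center zone against adaxial and 5 between the leaf sides. DESeq2 and an adjusted p under 0.05 each called 5 for center zone against abaxial and 5 between the leaf sides, where no filter also gave 5. Leaving out 1 library gave 0 to 6, 0 to 3, 0 to 5 and 1 to 2 of the 7. The cause of these shifts was not tested. Same-numbered libraries correlated in their deviations from the region means at 0.016 (center zone and adaxial), -0.059 (center zone and abaxial) and 0.187 (adaxial and abaxial). Such correlations cannot show whether the numbers pair the libraries, which the labels do not state.

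The log2 ratio of ARF3-like counts to lbl1 counts, center zone minus adaxial, was -0.439 without GRMZM2G030710 and between -0.287 and 0.071 when 1 library was left out, with 0.071 without center zone replicate 1. Adaxial minus abaxial it was -2.36 without ARF11, -2.213 without GRMZM2G030710, -2.53 without ARF23 and -2.471 without GRMZM5G874163. With 2 libraries a region, the spread is poorly known, and rgd2 is further limited by its low counts.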
